A study of Mus musculus with 4 samples.

Results

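Gata4 peaks were examined at 10 cardiac and smooth muscle contractile genes, *Nppa*, *Nppb*, *Myh6*, *Myh7*, *Tnnt2*, *Actc1*, *Acta2*, *Tagln*, *Myh11* and *Cnn1*, out of 22238 protein-coding genes of the annotation. The genes were chosen by name, and their peaks were taken as those within 5 kb of the gene, at which distance the deposited lists also name it, and those up to 50 kb away on the mm9 genome. Chromatin bound by Gata4 had been sequenced from 4 libraries, 1 per condition, all from J1 ES cells of 129 background. WT Flk1(+) and DKO Flk1(+) cells were mesoderm progenitors at day 4.5 of co-culture with OP9 stromal cells, sorted for the surface receptor Flk1 after 3 hr of 100 nM dexamethasone (Dex). DKO cells are Dnmt3a-/-Dnmt3b-/- and lack the enzymes that methylate new CpGs, whereas WT cells keep both. WT ES and DKO ES cells, undifferentiated and without Dex, were the controls. The Flk1(+) cells of both genotypes stably expressed Gata4GR under the ubiquitous CAG promoter. Gata4GR is Gata4 joined to the hormone-binding part of the human glucocorticoid receptor and thus activated by Dex. According to the study, the ES controls of both genotypes expressed Gata4GR as well. Each Flk1(+) library came from 1 clone, labelled J1G4.2 for WT, for which the study's methods give a longer name, and 16G4.3 for DKO. A mixture of 3 anti-Gata4 antibodies was used, so a peak can come from the fusion or from the cells' own Gata4, and these cannot be told apart.

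No condition has a replicate, and no test between WT and DKO was made. The lists held 20410 WT and 22733 DKO peaks. Each peak has a height, which is the level of the authors' read-density profile in the Flk1(+) library, a height of the same profile in the ES library of that genotype, and an enrichment, which is the ratio of these heights with an ES height below 1 taken as 1. Neither the depth of the libraries nor any scaling of the heights for depth is given in the lists, so values of the 2 lists are set side by side. The lists hold binding only, and the identity of the sorted cells was not checked here by marker expression. A window is the deposited sequence of a peak, with 250 bases on either side of its position. A peak absent from a list did not pass the caller's thresholds there, and the list gives no value for it.

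Gata4 is a zinc-finger factor of heart mesoderm and of endoderm that binds the GATA motif, AGATAA or TGATAA on either strand, and works in the heart together with Nkx2-5, T-box factors, Mef2 and serum response factor, the factor of the CArG box. The contractile genes are late targets of this network. Their products are the myosin heavy chains, actins and troponins of the sarcomere or of the smooth muscle filament, and the natriuretic peptides are hormones that the embryonic heart muscle secretes.

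The stretches of the plus strand of mm9 on which the following account turns are printed 5′ to 3′, with GATA motifs in capitals (TTATCT and TTATCA are the motif read on the other strand). The first 3 lie under peaks of both lists and the others under peaks of 1 list. The last is shown because the window of a peak at the start of *Tnnt2* held neither AGATAA nor TGATAA.
*Myh11* intron, WT and DKO lists, chr16:14265615-14265719: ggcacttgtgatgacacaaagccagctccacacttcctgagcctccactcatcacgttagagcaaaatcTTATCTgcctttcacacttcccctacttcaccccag
*Actc1* upstream, WT and DKO lists, chr2:113883325-113883475: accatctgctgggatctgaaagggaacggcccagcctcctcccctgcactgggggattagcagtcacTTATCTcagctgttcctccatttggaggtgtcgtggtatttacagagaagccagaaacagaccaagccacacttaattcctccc
*Tnni1* intron near *Tnnt2*, WT and DKO lists, chr1:137697078-137697218: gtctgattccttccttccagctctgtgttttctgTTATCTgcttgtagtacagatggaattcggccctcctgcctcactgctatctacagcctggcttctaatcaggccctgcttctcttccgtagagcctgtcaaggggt
*Acta2* intron, WT list, chr19:34327150-34327270: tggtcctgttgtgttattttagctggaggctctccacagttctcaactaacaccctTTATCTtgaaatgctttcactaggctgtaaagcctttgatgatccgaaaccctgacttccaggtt
*Acta2* upstream, WT list, chr19:34337295-34337460: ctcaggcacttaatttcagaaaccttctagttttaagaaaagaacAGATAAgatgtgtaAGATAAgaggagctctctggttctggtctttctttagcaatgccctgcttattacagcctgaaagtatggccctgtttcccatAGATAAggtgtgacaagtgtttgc
*Nppb* upstream, WT list, chr4:147343607-147343742: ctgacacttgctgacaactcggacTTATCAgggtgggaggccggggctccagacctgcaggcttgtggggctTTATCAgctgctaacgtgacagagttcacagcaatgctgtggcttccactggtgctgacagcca
*Myh7* upstream, WT list, chr14:55623386-55623526: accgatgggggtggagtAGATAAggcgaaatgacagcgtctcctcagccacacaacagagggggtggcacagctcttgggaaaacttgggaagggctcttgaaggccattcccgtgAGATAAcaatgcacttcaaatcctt
*Myh7* upstream, DKO list, chr14:55628460-55628580: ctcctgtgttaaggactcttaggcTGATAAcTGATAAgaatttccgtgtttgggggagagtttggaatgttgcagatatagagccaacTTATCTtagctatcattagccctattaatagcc
*Tnnt2* intron, WT list, chr1:137737710-137737830: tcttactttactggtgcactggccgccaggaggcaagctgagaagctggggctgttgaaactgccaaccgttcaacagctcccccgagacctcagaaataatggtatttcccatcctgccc

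Within 5 kb, 4 of the 10 genes had a WT peak, *Tnnt2*, *Actc1*, *Acta2* and *Myh11*, and 2 of them, *Actc1* and *Myh11*, had a DKO peak. Among all protein-coding genes 39.4% had a WT peak and 49.1% a DKO peak at this distance, so the 4 WT genes lay near the background share and the 2 DKO genes below it. The 2 genes with a peak in both lists compare with 31.9% of all genes, the 2 with a peak in the WT list only with 7.51%, and the 0 with a peak in the DKO list only with 17.2%. Counted from the transcription start site instead, 3 genes had a WT peak within 5 kb (27.9% of all genes) and 1 a DKO peak (40.0% of all genes). The gene bodies of the 10 were short, with a median of 10868 bp against 15512 bp for all genes, and counts that use the gene body depend on its length. The gene names in the deposited lists gave the same 4 and 2 genes.

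**Figure D1:**
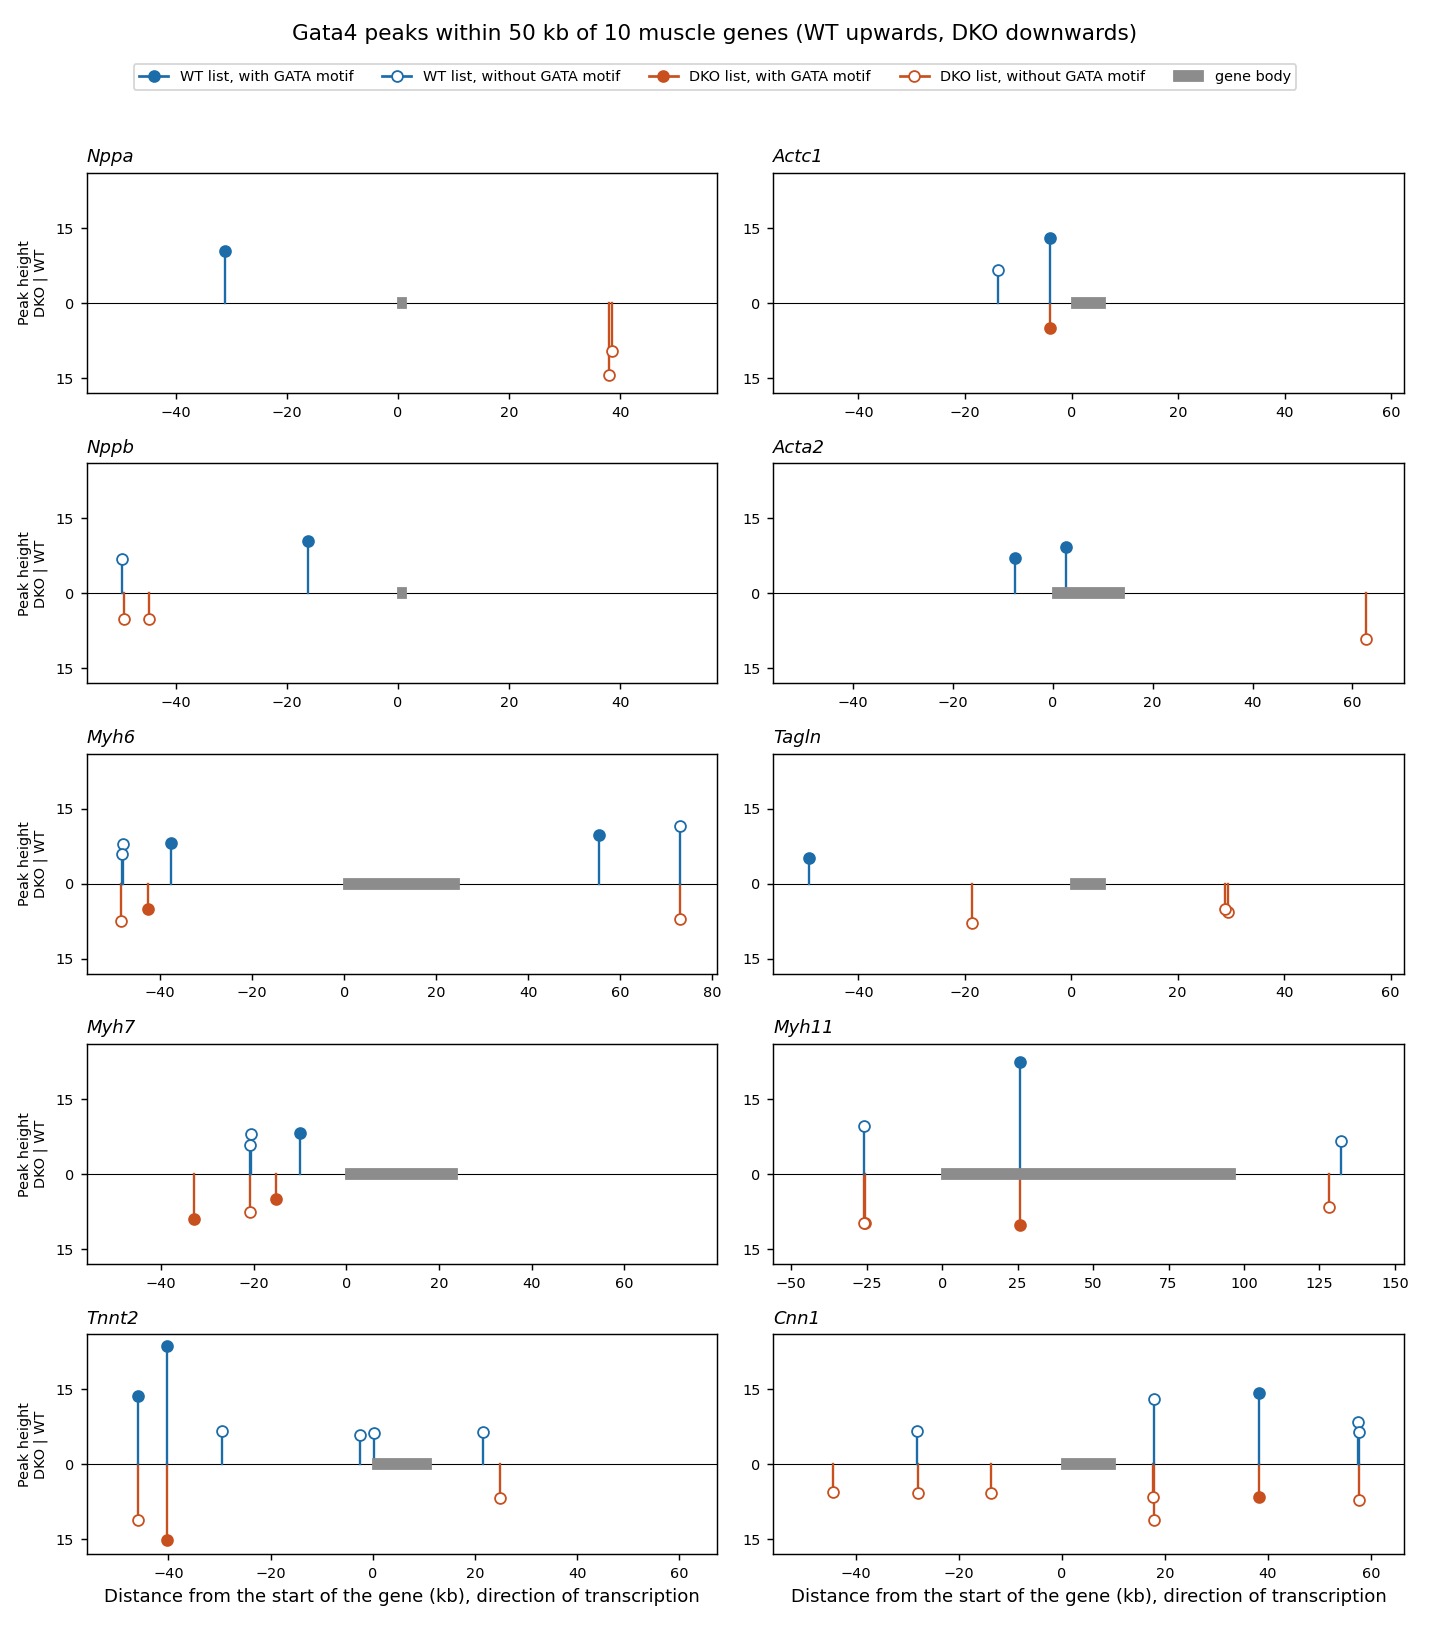
Gata4 peaks within 50 kb of each of the 10 genes. The horizontal axis is the distance from the start of the gene in kb along transcription, the grey bar is the gene body, and the height of the authors' profile is drawn upwards for WT (blue) and downwards for DKO (orange), with filled points for peaks whose window held a GATA motif. Only *Actc1* and *Myh11* had a peak of both lists within 5 kb, and the *Myh11* intron peak reached 22.4 in WT and 10.1 in DKO.

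The tallest peak within 5 kb of any of the genes lay in *Myh11*, the myosin heavy chain of differentiated smooth muscle (chromosome 16, 14194620 to 14291501, minus strand). It was in intron 3, 25842 bp downstream of the start, at 14265659 in the WT list and 3 bp away in the DKO list. Its height was 22.4 over an ES height of 1.36 in WT and 10.1 over 1.00 in DKO, which are enrichments of 16.5 and 10.1. It ranked 237 in the WT list, among the top 1.16%, and 1371 in the DKO list, among the top 6.03%. Its window held 2 GATA motifs, 1 of them 28 bp from the WT position, and 3 CpGs. The other peaks near *Myh11* were at promoters of its neighbours. The tallest of these was at the promoter of 0610037P05Rik, 26007 bp upstream, with a height of 9.61 in WT and a DKO peak of 9.88 at 166 bp from it, and a second DKO peak of 9.86 stood next to it. On the far side, WT had a peak of 6.60 and DKO one of 6.55 around *Nde1*, 3942 bp apart and counted as unshared.

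*Actc1* encodes the actin of the heart sarcomere and is among the first sarcomere genes of the embryonic heart (chromosome 2, 113873018 to 113879284, minus strand). A peak in intergenic sequence upstream was found in both lists, 4116 bp from the start in WT and 4069 bp in DKO. Its height was 13.1 in WT, with an enrichment of 8.49 and rank 1323, and 5.01 in DKO, with an enrichment of 3.78 and rank 17760. The DKO peak stood at the lowest height the caller accepts, 5.00, and in the lower part of its list (78.1% from the top), while the WT peak was in the top 6.48%. The WT window held 2 GATA motifs, the nearer 5 bp from the position, and 11 CpGs. A second WT peak, 13730 bp upstream, had a height of 6.64, no GATA motif and no DKO peak within 9661 bp.

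*Acta2*, the smooth muscle alpha-actin that also appears early in heart muscle and in mural cells (chromosome 19, 34315580 to 34329826, minus strand), had no DKO peak within 20 kb and 2 WT peaks. The first was in intron 1, 2616 bp downstream of the start, at a height of 9.35 over an ES height of 0.581, which is an enrichment of 9.35, and rank 3269 of the WT list (top 16.0%). Its GATA motif lay 1 bp from the position. The second was 7499 bp upstream, with height 7.08 and enrichment 5.92, and its window held 4 GATA motifs and 1 CpG. The nearest DKO peak was 60137 bp from the intron peak, at the promoter of *Stambpl1*, a deubiquitinase gene, with a height of 9.05 and 42 CpGs. Over the whole WT list, 31.5% of peaks with a GATA motif and a height from 7 to 10 were shared with the DKO list, so most peaks like those at *Acta2* had no counterpart.

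*Tnnt2*, cardiac troponin T (chromosome 1, 137737452 to 137748837, plus strand), had 2 WT peaks within 5 kb and no DKO peak. One lay in intron 1, 318 bp downstream of the start, with height 6.25 and enrichment 4.36. The other lay 2554 bp upstream of the GENCODE start, inside the gene as RefSeq draws it, with height 5.85 and enrichment 3.91. Neither window held AGATAA or TGATAA, but each held 2 matches once AGATAG and TGATAG were also counted. The windows held 9 and 11 CpGs, and the peaks ranked 9653 and 11570 of the WT list. The nearest DKO peak was 24619 bp from the first. Taller peaks stood farther upstream in intron 2 of *Tnni1*, the slow skeletal troponin I that the embryonic heart also makes. The first, 40294 bp upstream of *Tnnt2*, had a height of 23.7 in WT and 15.2 in DKO and enrichments of 9.31 and 11.8, so that the order of the lists differed between the measures. The second, 46027 bp upstream, had heights of 13.7 and 11.2 and enrichments of 4.13 and 6.09. Further unshared peaks, 2 in WT with heights of 6.64 and 6.49 and 1 in DKO of 6.68, held no GATA motif.

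The natriuretic peptide genes *Nppa* and *Nppb* lie next to each other on chromosome 4 (147374831 to 147376188 and 147359897 to 147361314, both plus strand). Neither had a peak of either list within 5 kb. The nearest was a WT peak in intergenic sequence 16215 bp upstream of *Nppb* and 31149 bp upstream of *Nppa*, with height 10.4, enrichment 6.35 and rank 2483 (top 12.2%). A GATA motif lay at its position and another 48 bp away, its window held 12 CpGs, and no DKO peak lay within 28626 bp. The DKO list had 2 peaks within 50 kb of each gene. Those of *Nppb* had heights of 5.10 at *Plod1*, opposite a WT peak of 6.88, and 5.08 at 2510039O18Rik. None of these 3 promoter windows held a GATA motif, and they held 18 to 50 CpGs.

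*Myh6* and *Myh7*, the alpha and beta heavy chains of cardiac myosin, lie in tandem on chromosome 14 (55560758 to 55585764 and 55589525 to 55613471, minus strand), and a peak within 50 kb of both was counted once. No peak of either list lay within 5 kb. The WT peak nearest to *Myh7* was 9995 bp upstream, with height 8.19, enrichment 6.13, 2 GATA motifs and 12 CpGs. The DKO list had instead a peak 15049 bp upstream, 5054 bp from the WT peak, with a height of 5.03, an ES height of 0.360, 4 GATA motifs and 7 CpGs. Each was in 1 list only, as was a DKO peak of 9.08 with 1 motif 32803 bp upstream. On the other side of *Myh6*, 30444 bp downstream, intron 4 of *Slc22a17* had a WT peak of 9.78, enrichment 9.78, with 2 GATA motifs within 16 bp of its position and no DKO peak within 17502 bp. Shared peaks without a motif were found at the promoters of *Ngdn* (8.0 and 5.86 in WT, 7.53 in DKO) and *Pabpn1* (11.5 in WT, 6.98 in DKO).

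*Tagln*, the actin-binding transgelin of smooth muscle (chromosome 9, 45737711 to 45744141, minus strand), had a WT peak only far upstream, farther from the gene than the nearest WT peak of any of the other 9. It stood 49362 bp away near *Pafah1b2*, with height 5.08 and enrichment 3.03, both close to the thresholds. Its window held 3 GATA motifs, the nearest of them 155 bp from the position. The DKO list had 3 promoter peaks without a motif, 7.84 at *Sidt2* (18658 bp upstream) and 5.06 and 5.59 at *Pcsk7* and *Rnf214*, with 28 to 56 CpGs. *Cnn1*, the smooth muscle calponin (chromosome 9, 21903725 to 21914074, plus strand), had no peak within 5 kb but 5 WT and 7 DKO peaks within 50 kb, the latter the most of the 10 genes. All 5 WT peaks and 5 of the 7 DKO peaks were shared. The tallest were at the promoter of *Elof1*, a transcription elongation factor gene, 7602 bp downstream (13.0 in WT, 11.1 in DKO, 32 CpGs, no motif), and 28029 bp downstream near *Acp5*, an acid phosphatase gene (14.2 in WT, 6.44 in DKO, 7 CpGs, 2 motifs). At *Elof1* the ES height was 4.14 in WT, and the enrichment of 3.15 was close to the threshold. The other shared peaks were at the promoters of *Zfp653* (6.70 in WT, 5.81 in DKO) and *Pigyl* (8.40 and 6.50 in WT, 7.18 in DKO).

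All 10 genes had a peak within 50 kb in each list, against 67.1% of all genes for WT and 70.4% for DKO. The number ranged from 1 to 6 per gene in WT (median 2.5, all genes 1) and from 1 to 7 in DKO (median 3, all genes 2). Peaks near several of the genes counted once, there were 26 WT and 27 DKO peaks. Heights ran from 5.08 to 23.7 in WT (median 8.09, all WT peaks 7.74) and from 5.01 to 15.2 in DKO (median 6.98, all DKO peaks 6.91). Measured to the nearest of the 10 genes, no peak lay between 50 and 55 kb. The DKO peaks within 50 kb of *Nppa* did lie between 50 and 55 kb from *Nppb*, so the count at *Nppb* depends on the limit. By the distance to the nearest gene, the last inside the limit were 49558 bp (WT) and 49316 bp (DKO) away, and the first outside 58657 and 64598 bp.

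Among the 26 WT peaks, 14 had a DKO counterpart with its position within 500 bp, or 53.8% (95% Wilson interval 35.5% to 71.2%), where the share over the WT list was 45.6%. In the other direction 14 of the 27 DKO peaks had a WT counterpart, or 51.9% (34.0% to 69.3%), where the share over the DKO list was 45.1%. These and all other intervals cover counting error within 1 library only, and both include the background. A GATA motif was held by 11 of the 26 WT windows, or 42.3% (25.5% to 61.1%), against 61.9% of all WT peaks, and by 6 of the 27 DKO windows, or 22.2% (10.6% to 40.8%), against 38.1% of all DKO peaks. The WT interval ended at 61.1%, just below the background, and the DKO interval included it. The intervals treat peaks as independent. Some windows without a motif overlapped each other, such as those at *Ngdn* and at *Pigyl* in WT. The WT interval missed the background by little, and the lower WT share is therefore not read as a difference.

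Many of these peaks stood at promoters. Within 1 kb of the start site of some gene, mostly a neighbour, lay 13 of the 26 WT peaks (50%, all WT peaks 29.0%) and 19 of the 27 DKO peaks (70.4%, all DKO peaks 51.3%). Of the 13 WT peaks over 1 kb from any start site 9 held a GATA motif (69.2%, all such WT peaks 77.2%), as did 5 of 8 in DKO (62.5%, all such DKO peaks 61.7%). CpG counts differed between windows with and without a motif. The median per window was 11 in WT and 32 in DKO (all peaks 8 and 21), but 7 and 6.5 in the windows with a motif and 29 and 36 in those without. Over all peaks the split was much the same, with 6 and 7 in windows with a motif and 27 and 33 in those without. No window with a motif held over 12 CpGs in WT or 10 in DKO.

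**Figure D2:**
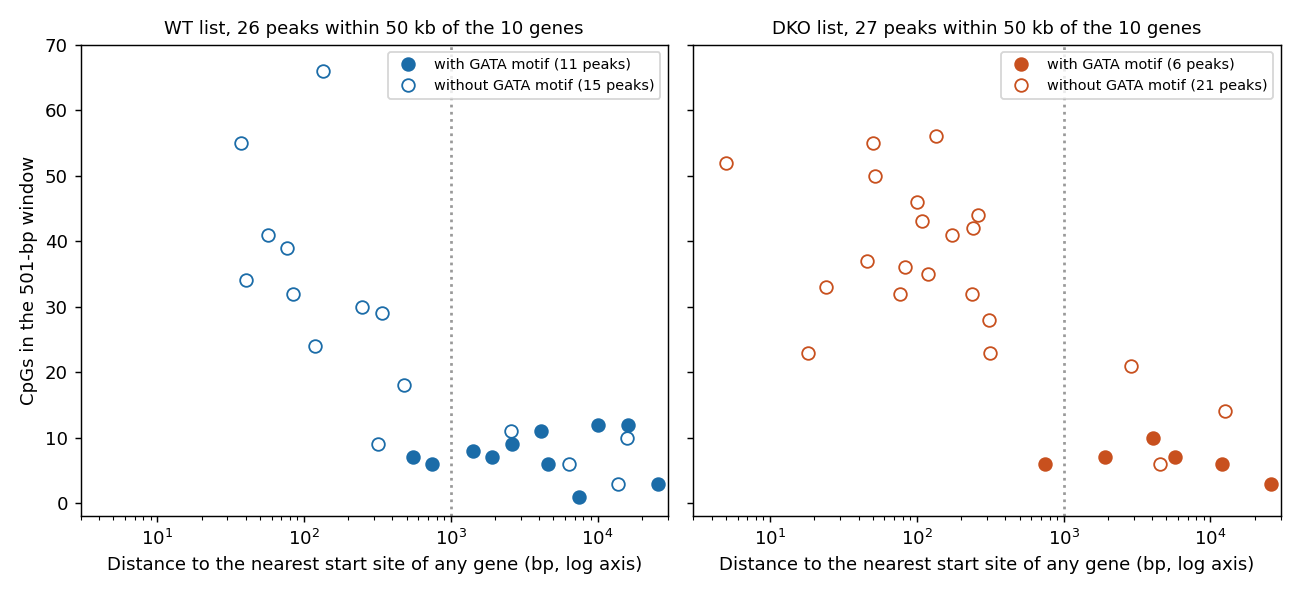
CpGs in the window of each peak (vertical axis) against the distance from the peak to the nearest start site of any gene (bp, log axis) for the 26 WT and 27 DKO peaks, with filled points for windows with a GATA motif and a dotted line at 1 kb. Windows with a motif held 1 to 12 CpGs in WT and 3 to 10 in DKO, and 19 of the 27 DKO peaks lay left of the line.

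The 12 shared pairs, each peak being the other's nearest, allowed heights to be set side by side. The ratio of the DKO to the WT height had a median of 0.782, against 0.806 over all 8489 shared pairs of the lists, and was below 1 in 9 of 12 (71.9% of all pairs). In the 5 pairs whose WT window held a motif it was below 1 in each, at 0.383 at *Actc1*, 0.452 in *Myh11*, 0.454 near *Acp5*, and 0.642 and 0.822 in *Tnni1*. Their median of 0.454 compares with 0.661 over all 4537 pairs with a motif, of which 82.0% were below 1. In the 7 pairs without a motif the median was 0.868 (all such pairs 0.925), and 4 were below 1. These counts depend on the pairing, which left out some shared peaks. At *Ngdn* and *Pigyl*, where the ratio was above 1, the WT peak left out was taller than the DKO peak (8.0 against 7.53 and 8.4 against 7.18). A DKO peak was left out at 0610037P05Rik (9.86, WT 9.61) and at *Elof1* (6.55, WT 13.0), and there the order was that of the pair. The ratio at *Actc1* was lower than in all but 6.90% of the shared pairs, and the one in *Myh11* than in all but 12.8%. Among the pairs with a motif, which ran lower, these shares were 11.7% and 21.3%.

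The enrichments over ES gave another order. The ratio of DKO to WT enrichment had a median of 1.11 over the 12 pairs and 1.05 over all pairs. It was below 1 at *Actc1* (0.445), in *Myh11* (0.611) and near *Acp5* (0.722), as the heights were, but above 1 in both *Tnni1* pairs (1.47 and 1.27). At *Ngdn* the order of the paired peaks was the other way, with an enrichment ratio of 0.61 and a height ratio of 1.28. The second WT peak there was left out of the pair. Its height of 8.0 and enrichment of 5.46 were both above those of the DKO peak (7.53 and 3.21). At *Pabpn1* the enrichment ratio was 0.98 and the height ratio 0.609. The other 5 pairs had enrichment ratios of 1.10 to 2.14. The ES heights under these *Tnni1* peaks were 3.31 and 2.55 in WT and 1.85 and 1.29 in DKO. Their part in the result was not tested. With 1 library per genotype, a genotype and its library cannot be told apart.

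**Figure D3:**
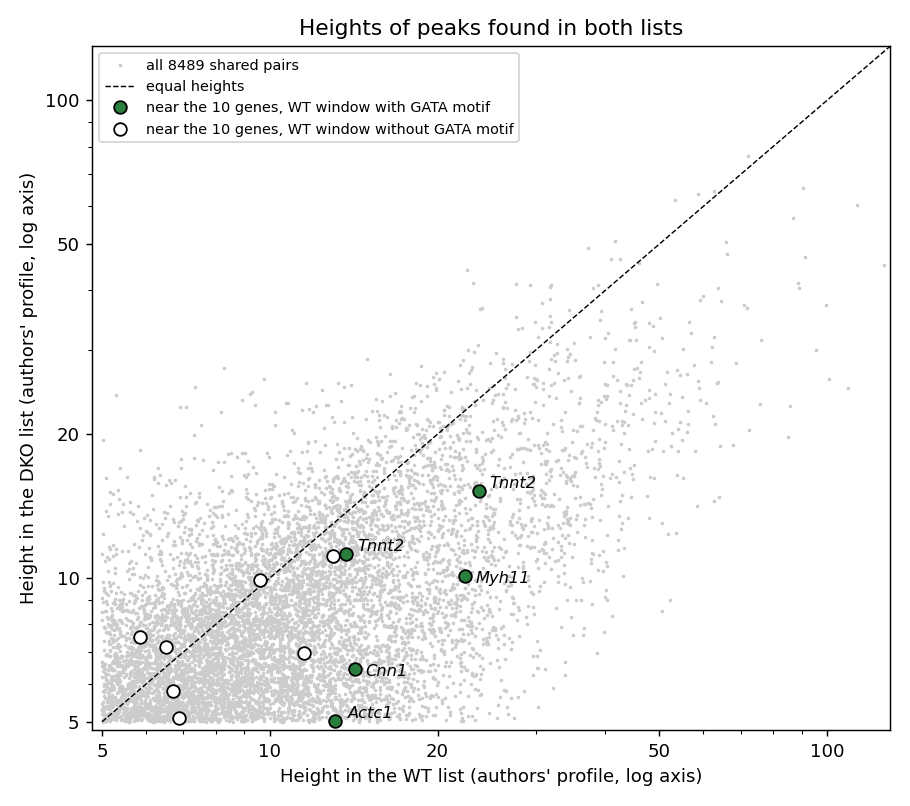
Height in the DKO list against height in the WT list (both the authors' profile, log axes) for all 8489 shared pairs (grey) and the 12 pairs within 50 kb of the genes (circles, filled where the WT window held a GATA motif and labelled with the gene they were counted for). The dashed line marks equal heights, and the 5 filled circles lie below it, *Actc1* farthest.

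Of the 11 WT peaks with a motif, 6 had no DKO counterpart, 2 at *Acta2* and 1 each at *Nppb*, *Myh7*, *Slc22a17* and *Pafah1b2*. Their heights, 5.08 to 10.4, lay below those of the 5 shared ones, 13.1 to 23.7, and the groups did not overlap. Over all WT peaks with a motif the shared portion also grew with height, from 17.2% at heights of 5 to 7 and 31.5% at 7 to 10 to 56.3% at 10 to 15 and 84.4% above 15. Near the 10 genes these classes held 0 of 1, 0 of 4, 3 of 4 and 2 of 2 shared peaks. Of the 6 DKO peaks with a motif 4 were shared, and the other 2 were those upstream of *Myh7*.

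The motifs of partner factors were counted in the same windows. The CArG box was searched as CCWWWWWWGG and the Mef2 motif as YTAWWWWTAR. Here W is A or T, Y is C or T and R is A or G. Sequences that break these patterns were not counted. None of the 53 windows held such a CArG box (2.55% of all WT and 2.00% of all DKO peaks). A Mef2 motif was in 1 window of each list (4.25% and 2.85%). AAGTG, a core of the Nkx2-5 site, was in 20 WT and 17 DKO windows (76.9% and 63.0%, all peaks 69.2% and 63.2%). The T-box letters AGGTGT were in 8 and 7 (30.8% and 25.9%, all peaks 26.3% and 21.3%), and CATTCC, the MCAT motif of Tead factors, in 9 and 7 (34.6% and 25.9%, all peaks 29.1% and 24.5%). All were searched on both strands, and these letters can overlap each other. Of the 22 GATA motifs in the WT windows 11 lay in the central 100 bp (50%, all WT peaks 46.3%), and of the 11 in the DKO windows 6 (54.5%, all DKO peaks 42.3%).

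Promoter sequences of RefSeq (GRCm38.p6), matched to mm9 as identical sequence, were found for 8 of the genes. Entries for *Tagln* and *Myh11* were not found. A GATA motif was present in the promoters of *Nppa*, *Nppb* and *Tnnt2*, against 18.6% of 32851 promoters of the same length (250 bases before to 50 after the start). *Tnnt2* and *Myh7* each had a second promoter, and for every motif a gene counted where either promoter held it. The second *Tnnt2* promoter held no GATA motif. The shares over all promoters count each promoter singly, so they are an unlike measure. The sites are printed on the strand of the gene, in mm9 coordinates, because no peak of either list covered them.
*Nppa* promoter chr4:147374581-147374830: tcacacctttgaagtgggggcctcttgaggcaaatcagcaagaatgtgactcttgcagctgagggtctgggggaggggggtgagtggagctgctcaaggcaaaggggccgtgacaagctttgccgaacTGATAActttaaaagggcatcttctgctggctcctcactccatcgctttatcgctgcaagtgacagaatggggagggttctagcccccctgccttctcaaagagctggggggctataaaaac
*Nppb* promoter site chr4:147359908-147359936: tgcagcTGATAAatcagAGATAAccccac
*Tnnt2* promoter site chr1:137732739-137732767: atagctTTATCTgagcagctggaggacca

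The *Nppa* motif begins 122 bp before the start, and the WT peak nearest to that start was 31149 bp away. The *Nppb* motifs begin 95 and 84 bp before the RefSeq start, where the distances were 16327 and 44953 bp. The *Tnnt2* motif begins 166 bp before the first RefSeq start, and the WT peak nearest to that start was 1987 bp away. A CArG box of the searched pattern was present in the *Actc1* promoter alone, 47 bp before the start (1.63% of promoters). The *Acta2* promoter held CCCTATATGG and CCTTGTTTGG, and the *Actc1* promoter also held CCCTATATGG. These break the pattern by a C or G in the middle and were not counted. Such near matches were not searched for across the promoters. A Mef2 motif was in none (3.19%). CATTCC was in 5, *Acta2*, *Myh6*, *Myh7*, *Nppb* and *Tnnt2* (14.7% of promoters), AGGTGT in *Nppa* (13.7%), and AAGTG in *Myh6*, *Myh7* and *Nppa* (46.4%).

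A list of 57 other muscle genes was set beside the 10. Within 5 kb, 28 had a WT peak (49.1%, all genes 39.4%) and 30 a DKO peak (52.6%, all genes 49.1%). Both lists had a peak at 22 of the 57 (31.9% of all genes), WT alone at 6 (7.51%) and DKO alone at 8 (17.2%). Of the 30 genes of the cardiac sarcomere and calcium handling 18 had a peak in each list (60%). Of the 12 smooth muscle genes 6 had one in WT and 7 in DKO (50% and 58.3%), and of the 15 skeletal muscle genes 4 and 5 (26.7% and 33.3%). These counts use the gene body and depend on its length. Within 5 kb of the start site, 14 of the 57 had a WT peak and 22 a DKO peak, where 27.9% and 40.0% of all genes had one. For the cardiac group these counts were 9 and 13, for smooth muscle 2 and 5, and for skeletal muscle 3 and 4. The tallest WT peaks of the list were at *Ryr2*, the calcium release channel of the heart (47.9), *Actn3*, the alpha-actinin of fast skeletal fibres (34.5), *Tnni1* (23.7), *Myl7*, the atrial myosin light chain (22.4), and *Mylk*, the myosin light chain kinase of smooth muscle (20.4). The tallest DKO peaks were at *Fhod3*, a formin of the sarcomere (33.9), *Cacna1c*, the L-type calcium channel (25.3), *Ryr2* (23.8), *Cald1*, caldesmon (16.3), and *Tnni1* (15.2). In the order named, their enrichments were 5.79, 3.86, 9.31, 4.35 and 13.7 in WT and 5.13, 3.02, 14.9, 3.47 and 11.8 in DKO. The value at *Cacna1c* was close to the threshold, and its window held no GATA motif. The *Myh11* peak equalled that of *Myl7* in WT height and had the higher enrichment, 16.5 against 4.35.

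**Figure D4:**
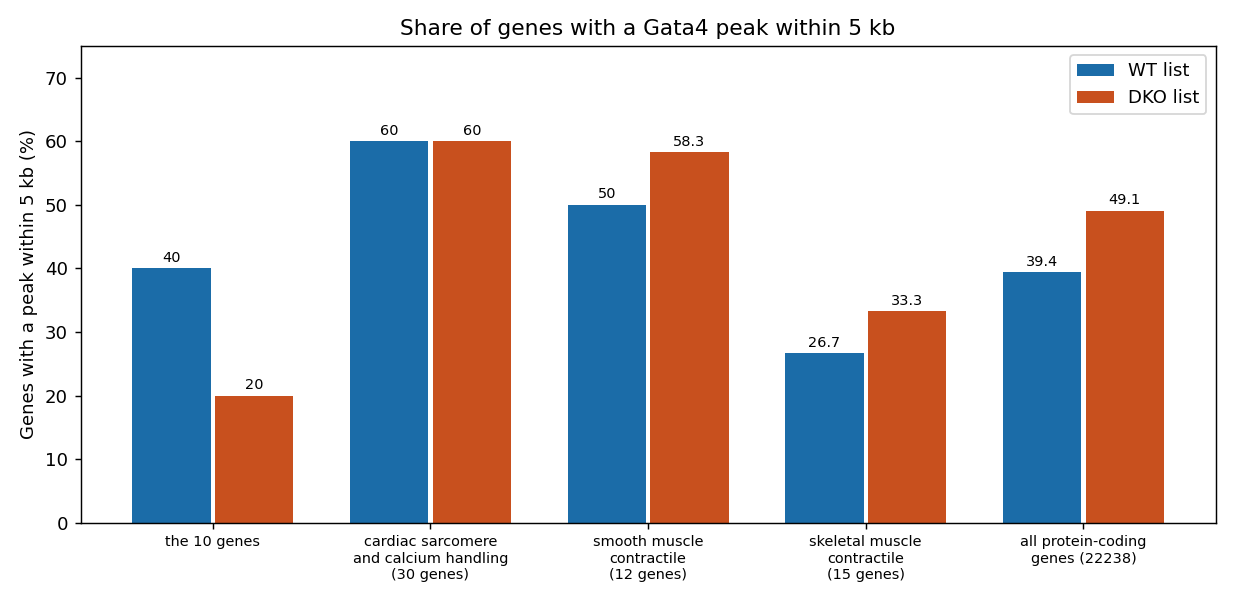
Percentage of genes with a Gata4 peak within 5 kb in the WT list (blue) and the DKO list (orange) for the 10 genes, the 3 groups of other muscle genes and all 22238 protein-coding genes. The bars of the 10 genes stand at 40% and 20%, those of all genes at 39.4% and 49.1%, and each group has 1 library per genotype and so no error bar.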

How the data were processed

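Gata4 ChIP-seq peak lists of WT Flk1(+) and DKO Flk1(+) cells were used, each called by the authors against ES cells of its own genotype. A company mapped the reads to mm9, and the submitters' processing notes name CASAVA 1.8.1 and cutadapt. The authors called peaks with DNAnexus tools (bandwidth 30, candidate threshold 5.0, enrichment 3.0, ratio of confident to repetitive mapping 3.0). The deposited signal is the height of the density profile in the Flk1(+) and in the ES library. The deposited ratio of these heights takes an ES height below 1 as 1, which held for every peak and applied to 16.2% of WT and 18.8% of DKO peaks. The authors' −log10 q-value and the deposited rank, a score with 1 the highest, order the peaks within a list. Gene names and distances in the lists are also the authors', for RefSeq genes within 5 kb. The lists were assigned to genotypes by their names and numbers of peaks. The study's methods give the depth of the Flk1(+) libraries, with more mapped reads for DKO than for WT. The depth of the ES libraries, the scaling of the heights and the handling of duplicate reads are not given in the sources used here.

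Peak positions were set against GENCODE vM1 genes of mm9. Peaks of the lists were called shared where positions lay within 500 bp, so that the deposited sequence windows overlapped. All 53 windows near the 10 genes equalled mm9 sequence centred on the position. Motifs were searched on both strands. With 1 library per condition, no p-value was computed. A result at 1 neighbouring gene is not reported here. The 10 genes, the other muscle genes and the motifs were chosen with earlier results of these data known. Every peak within 5 kb of the 10 genes was described, and of the other muscle genes the 5 with the tallest peaks per list. The alternatives were other distances, peaks ranked above the median of their list, an enrichment of at least 5, other limits of overlap, and other motifs and windows. The overlap and motif steps were tested on simulated data. Python 3.11.15, pandas 2.3.3, NumPy 2.4.6, SciPy 1.17.1, pysam 0.24.0, samtools 1.23.1 and Matplotlib 3.10.9 were used.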

Additional observations from a re-analysis of the deposited data

How the results depend on the processing

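Of 50 alternative values over 14 results, 31 stayed within 1.5 times the count or median or within the interval of the share, and 19 did not. No paired analysis was possible because each condition had 1 library. The number of genes with a DKO peak within 5 kb was 1 in place of 2 when counted from the start site, among peaks ranked above the median of the list, and at an enrichment of at least 5, because the *Actc1* peak or the intron peak of *Myh11* was left out. The number with a DKO peak within 50 kb was 6 in place of 10 within 20 kb, above the median rank and at an enrichment of at least 5. Under the same settings the 26 WT peaks became 11, 15 and 13 and the 27 DKO peaks 8, 15 and 8. With positions within 100 bp, 30.8% of WT and 29.6% of DKO peaks were shared. With AGATAG and TGATAG also counted as motifs, 61.5% of WT windows held one. Over 1 kb from any start site, the motif share was 69.2% in WT and 62.5% in DKO, and the median number of CpGs in DKO was 7. Of the other muscle genes, 14 in place of 28 had a WT peak within 5 kb of the start site. The unstated scaling of the heights for depth and a single library per condition limit every value set side by side between the lists.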
